A study of Mus musculus with 18 samples.

Results

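Transcription factors that define the layers of the cerebral cortex were followed through RNA-seq of mouse brain tissue at postnatal day 0 (P0) and of neurospheres grown from it. The 9 genes were *Tbr1*, *Fezf2*, *Bcl11b*, *Sox5* and *Foxp2*, which mark deep layers, and *Cux1*, *Cux2*, *Rorb* and *Pou3f2*, which mark upper layers. They were found by gene name among the 23138 gene names of the hippocampal table, 23398 of the neurosphere table and 54429 of each of the other tables, and where a name had several entries the one with the highest mean was read. All 9 genes had an entry in each of the 4 tables.

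The 18 libraries form 4 comparisons. Hippocampi (3 control and 3 cKO libraries), neurospheres grown from hippocampi (2 and 2) and cortices (2 and 2) came from *Kdm2b* Emx1-∆CxxC cKO mice, in which *Emx1*-Cre removes the exon for the CxxC zinc finger from floxed *Kdm2b*, and from controls with floxed *Kdm2b* in the heterozygous or homozygous state. The neurospheres were started from P0 hippocampi and sequenced after 3 generations in culture. A further set of hippocampi (2 and 2) came from mice in which *Emx1*-Cre deletes *Rnf2*, and from controls with floxed *Rnf2*, heterozygous or homozygous. *Emx1*-Cre is active in progenitors of the dorsal telencephalon and their progeny, so that interneurons, vessels, meninges, blood and neighbouring regions in a dissected piece keep the intact allele. The labels do not say which controls carry 1 or 2 floxed alleles, nor that libraries of a group came from separate animals or cultures, so the p values measure the spread between these libraries.

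Cortical projection neurons are born from the inside out, with deep-layer neurons made first and upper-layer neurons later, and each class is held in its identity by transcription factors that promote their own class and repress others. *Tbr1* specifies corticothalamic neurons, *Fezf2* specifies neurons that project below the cortex, and *Bcl11b* (CTIP2) acts downstream of *Fezf2* in their axon growth. *Sox5* times the making of deep-layer classes, and *Foxp2* is a forkhead factor of corticothalamic neurons. *Cux1* and *Cux2* shape dendrites and synapses of upper-layer neurons, *Rorb* marks neurons that receive thalamic input, and *Pou3f2* (BRN2) acts in the making and migration of upper-layer neurons. The names of layers belong to the neocortex, while several of these genes are also used elsewhere: *Tbr1*, *Bcl11b* and *Cux* genes in hippocampal neurons, *Bcl11b* in striatal neurons, *Rorb* in the thalamus, and *Sox5* in glial lineages. KDM2B binds unmethylated CpG through its CxxC finger and recruits a variant of Polycomb repressive complex 1 (PRC1), and RNF2 is a ubiquitin ligase of PRC1.

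Values are FPKM, fragments scaled for gene length and library depth, which the authors deposited. Reads could be recovered from the cortical and *Rnf2* tables, whose libraries hold 18699297 to 22036848 and 14962620 to 16524358 reads, whereas the depth of the other tables is unknown. Taken over the whole gene, *Kdm2b* was at 31.9, 28.3 and 28.1 FPKM in control hippocampi and at 28.2, 27.3 and 26.2 FPKM in cKO hippocampi (log2 fold change -0.10, adjusted p = 0.364), and its log2 fold change was 0.06 in neurospheres and -0.13 in cortices, without separating the floxed exon. *Rnf2* was at 32.3 and 30.8 FPKM in its controls and at 28.5 and 27.8 FPKM in its cKO hippocampi (log2 fold change -0.16, adjusted p = 0.762), both cKO libraries below both controls, in a table where 0 genes had an adjusted p under 0.05. By *Xist*, 1 library differed in sex from the rest of its table in each *Kdm2b* comparison, namely cKO library 1 of the hippocampi, cKO library 1 of the neurospheres and control library 1 of the cortices. Control neurosphere library 1 stood apart, with 29.3% of its FPKM in entries without a gene name against 0.876% to 1.95% in the other neurosphere libraries. The tissue labels were checked against markers: the summed FPKM of 7 neocortical genes (4 of which are among the 9 factors) was 943 to 1051 in cortices and 311 to 411 in hippocampi of either table, and that of 7 neural progenitor genes was 2077 to 4371 in neurospheres against 146 to 378 in the tissues.

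In control cortices, *Pou3f2* and *Tbr1* were the most abundant of the 9 factors. *Pou3f2* was at 47.3 and 64.7 FPKM, *Tbr1* at 53.0 and 58.6 FPKM, and *Fezf2* at 54.4 and 50.3 FPKM, and the ranges of these genes overlap. *Bcl11b* followed at 30.2 and 30.1 FPKM, then *Sox5* at 23.6 and 27.4 FPKM and *Cux2* at 19.1 and 18.9 FPKM, each without overlap with its neighbours. *Cux1* (10.1 and 11.9 FPKM) stood above *Rorb* (3.03 and 3.58 FPKM) and *Foxp2* (2.05 and 3.05 FPKM), and the latter pair overlap. Factors of both layers thus stood among the highest and among the lowest.

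In control hippocampi of the *Rnf2* table, which has the form of the cortical one, the order was another. *Bcl11b* (27.2 and 32.2 FPKM), *Fezf2* (26.9 and 28.9 FPKM) and *Tbr1* (23.5 and 23.9 FPKM) led, and the first 2 overlap. *Sox5*, *Cux1* and *Cux2* lay together between 4.004 and 4.99 FPKM. *Pou3f2* was at 2.94 and 1.90 FPKM, *Rorb* at 1.08 and 0.493 FPKM, and *Foxp2* at 0.339 and 0.307 FPKM. The last 2 rest on few reads, 85 to 179 for *Rorb* and 78 to 90 for *Foxp2* in the libraries of that table, so that their levels carry more counting error than the others.

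Set beside each other, the control cortices were higher than these control hippocampi for 8 of the 9 factors without overlap of the libraries. The share of all genes without overlap between these groups was not counted. The ratio of means was 23.1 for *Pou3f2*, 7.89 for *Foxp2*, 5.58 for *Sox5*, 4.37 for *Cux2* and 4.20 for *Rorb*. It was 2.37 for *Cux1*, 2.35 for *Tbr1* and 1.87 for *Fezf2*. *Bcl11b* was the exception, at 30.1 FPKM in cortices against 29.7 FPKM in hippocampi on average, with overlapping libraries. Of all 17111 genes, 8.64% were past 2-fold higher in cortices on the log2(FPKM + 1) scale and 7.63% past 2-fold lower, and 7 of the 9 factors were past it as higher and none as lower. These tables were scaled separately and hold different tissues, so the comparison was not tested and table and tissue cannot be told apart.

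**Figure D1:**
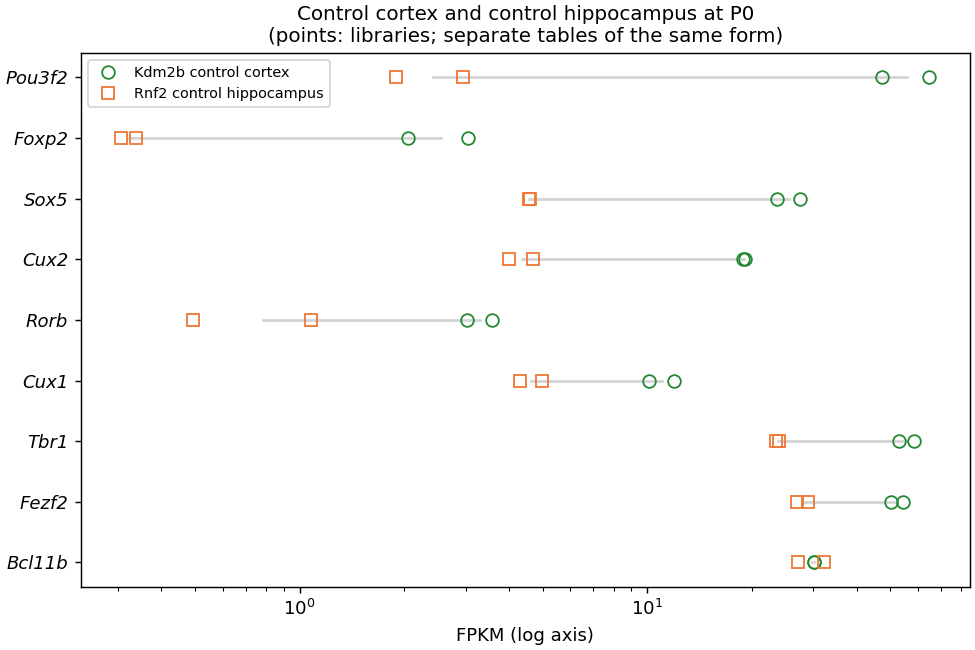
FPKM (log axis) of the 9 factors in the 2 *Kdm2b* control cortex libraries (circles) and the 2 *Rnf2* control hippocampus libraries (squares), with grey lines joining the group means, ordered by the ratio of means. The gap narrows from *Pou3f2* (23.1-fold) at the top to *Bcl11b*, whose libraries overlap, at the bottom.

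In control hippocampi of the *Kdm2b* table, estimated with Cufflinks, *Tbr1* (32.9, 30.7 and 30.7 FPKM) and *Fezf2* (28.04, 24.4 and 31.3 FPKM) again led. *Cux1* was at 23.5, 18.9 and 20.5 FPKM and *Bcl11b* at 18.6, 19.9 and 19.2 FPKM, with overlapping ranges. *Cux2* (7.60, 7.51 and 8.14 FPKM) and *Sox5* (7.60, 5.79 and 8.44 FPKM) formed a middle pair, and *Pou3f2* (1.79, 2.33 and 2.52 FPKM), *Rorb* (1.27, 0.987 and 1.09 FPKM) and *Foxp2* (0.368, 0.219 and 0.265 FPKM) were lowest. The low place of *Pou3f2*, *Rorb* and *Foxp2* was thus shared by both sets of control hippocampi. *Cux1* was 4.52 times as high as in the *Rnf2* controls and *Bcl11b* 0.648 times as high, although the tissue is the same, and over all genes the median log2 difference between these 2 control groups was 0.47, with 21.4% of genes past 2-fold higher and 1.74% past 2-fold lower. Levels of a gene in tables of different form are therefore given as values only.

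Neurospheres, cultures of neural progenitors, held a different set of factors from hippocampal tissue, and both tables came from Cufflinks. *Tbr1* was at 0.153 and 0.168 FPKM and *Fezf2* at 0.0400 and 0.0249 FPKM in control neurospheres, and both were under the filter of a mean of 0.5 FPKM. Their mean levels in control hippocampi were 31.4 and 27.9 FPKM. *Bcl11b*, at 1.35 and 1.53 FPKM, was 13.4 times and *Cux2*, at 2.85 and 2.92 FPKM, 2.69 times as high in control hippocampi. The other 5 factors were higher in the control neurospheres, with no overlap of libraries, and the share of all genes without overlap was not counted. On the log2(FPKM + 1) scale 4 factors were past 2-fold higher and 3 past 2-fold lower in the hippocampi, where 17.98% and 14.3% of all 13200 genes were. *Rorb* was at 7.69 and 7.41 FPKM (6.77 times its level in control hippocampi), *Foxp2* at 1.60 and 1.22 FPKM (4.97 times) and *Pou3f2* at 5.85 and 7.91 FPKM (3.11 times). *Sox5* was at 16.6 and 16.8 FPKM (2.30 times) and *Cux1* at 31.2 and 33.2 FPKM (1.53 times). Each of these ratios is a description across 2 tables. Summed FPKM of 6 oligodendrocyte lineage markers was 2415 to 2516 in neurospheres and 53.4 to 64.6 in the hippocampi. In neurospheres most of it was *Olig1* (means of 1740 FPKM in controls and 1921 FPKM in cKO libraries) and *Olig2* (502 and 505 FPKM). The other markers, *Pdgfra*, *Sox10*, *Gpr17* and *Cspg4*, were lower in cKO than in control neurospheres. The part of oligodendrocyte lineage cells in the levels of *Sox5*, *Rorb* and *Pou3f2* was not tested. In bulk RNA, fewer cells of a type and less RNA per cell cannot be told apart.

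**Figure D2:**
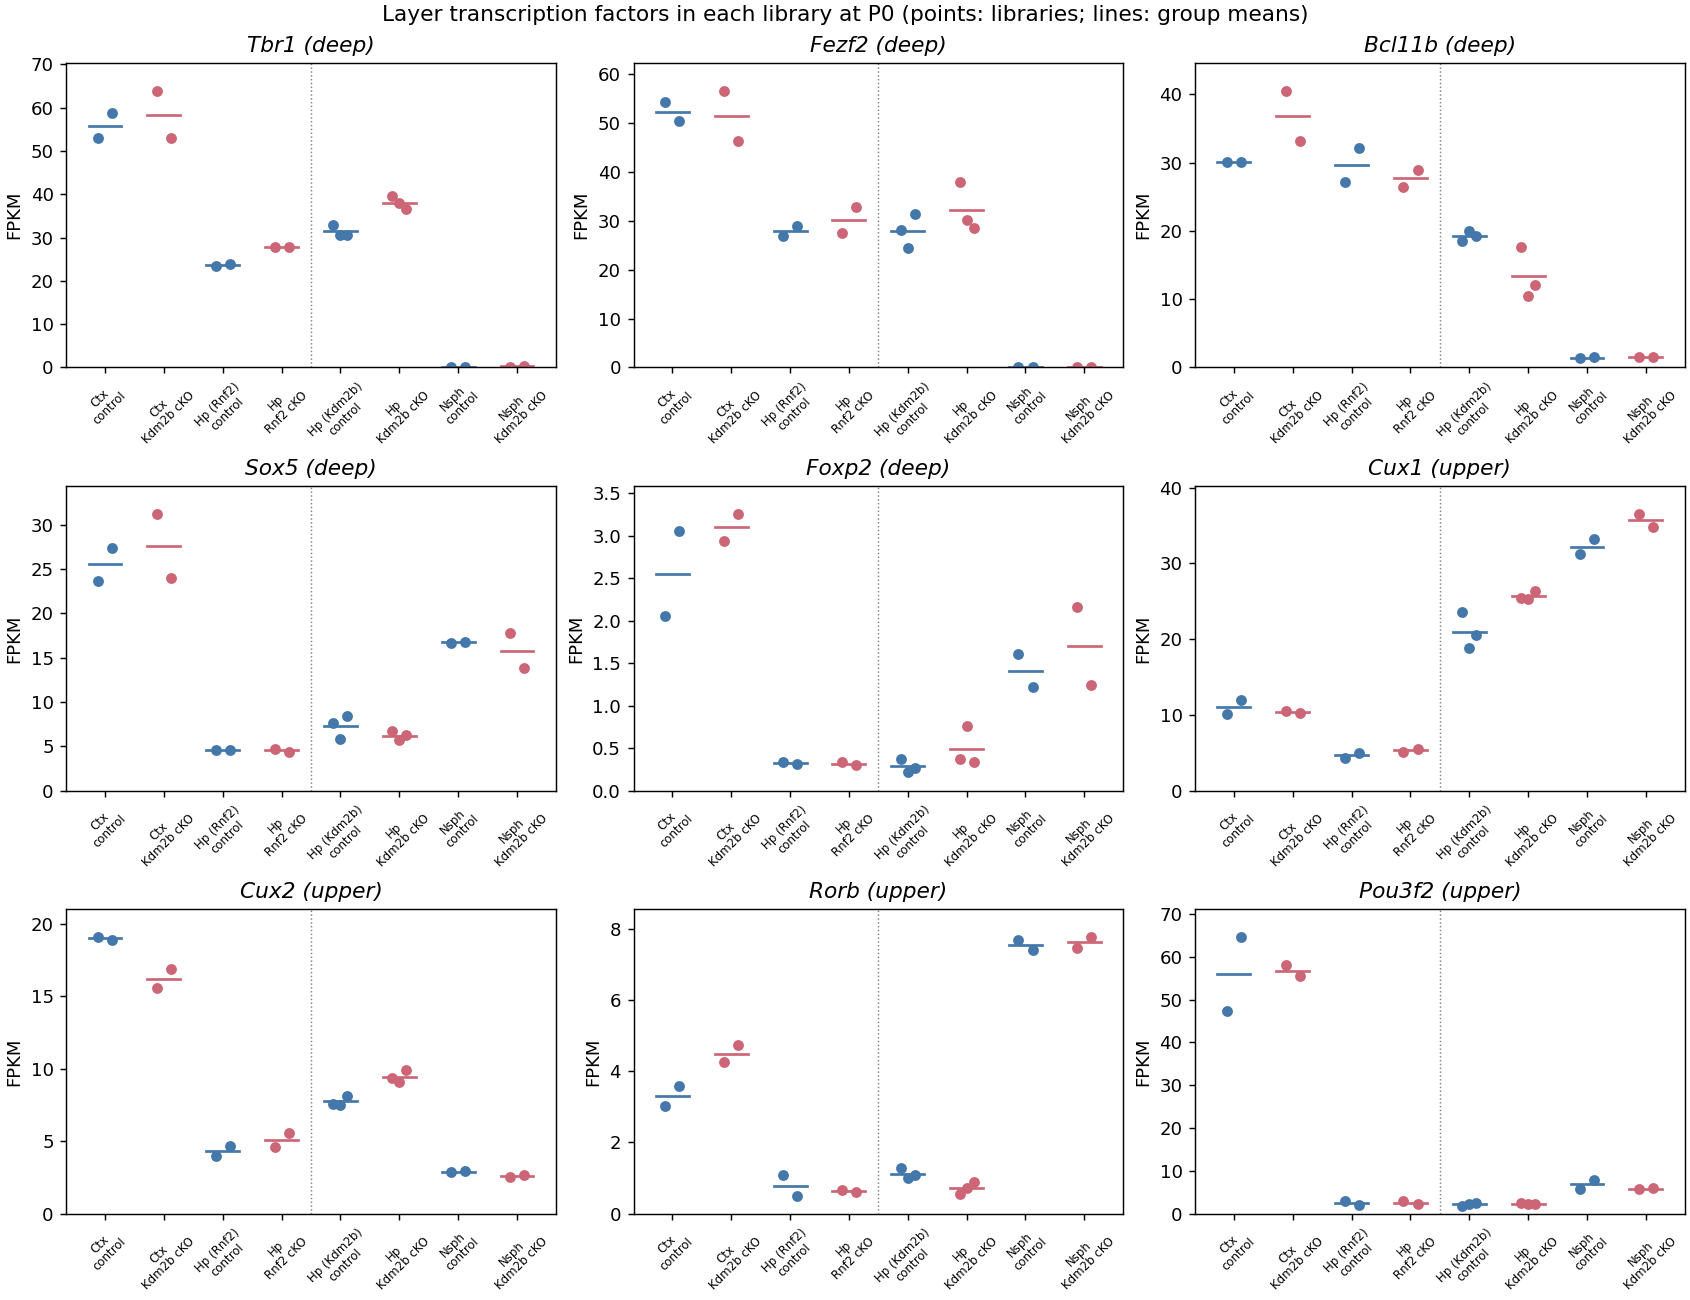
FPKM of each factor in each of the 18 libraries (points) with group means (lines), for cortex (Ctx), hippocampus (Hp) and neurospheres (Nsph), in controls (blue) and cKO libraries (red); the dotted line parts the tables with recovered reads (left) from the Cufflinks tables (right). *Tbr1* and *Fezf2* are near 0 in neurospheres, *Pou3f2* is high in cortex, and *Bcl11b* is lower in the 3 *Kdm2b* cKO hippocampi than in their controls.

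Within a library, the mean log2(FPKM + 1) of the 5 deep-layer factors minus that of the 4 upper-layer factors gives a balance of the groups, which the pseudocount of 1 leaves partly dependent on the scale of each library. It was 0.70 and 0.62 in control and 0.88 and 0.63 in cKO cortices. In the *Kdm2b* hippocampi it was 0.96, 0.88 and 0.96 in controls and 1.01, 0.83 and 0.72 in cKO libraries, and in the *Rnf2* hippocampi 1.48 and 1.69 in controls and 1.54 and 1.58 in cKO libraries. The neurospheres were the reverse, with upper-layer factors higher, at -1.81 and -1.94 in controls and -1.72 and -1.88 in cKO libraries. Control and cKO values overlapped in all 4 comparisons, while the balance of neurospheres lay far from that of tissue.

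**Figure D3:**
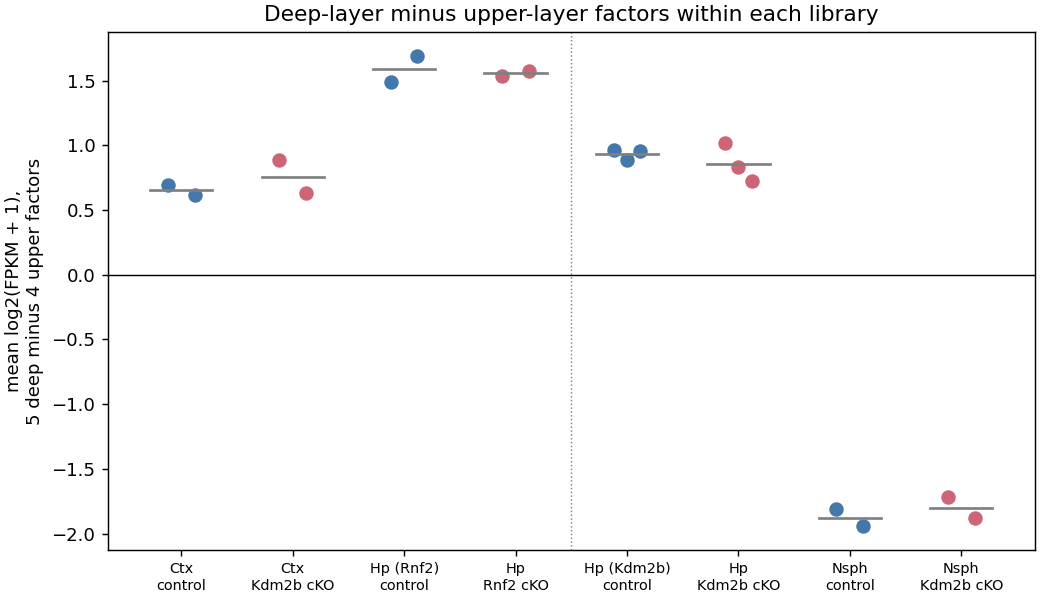
Mean log2(FPKM + 1) of the 5 deep-layer minus the 4 upper-layer factors in each library (points; blue, control; red, cKO) with group means (grey lines); the dotted line parts the 2 forms of table. Control and cKO libraries overlap in each comparison, and neurospheres lie between -1.94 and -1.72, below every tissue library.

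Whether loss of the KDM2B CxxC finger alters layer factors in the hippocampus was asked of the 3 control and 3 cKO hippocampi. The deep-layer factor *Bcl11b* fell, and it was the single factor past both thresholds of the study, an unadjusted p under 0.05 together with a log2 fold change beyond 0.4 in either direction. The log2 fold changes given here and below are on the log2(FPKM + 1) scale, which understates the change of low genes. Over all genes tested in this comparison 6.14% were called, 3.89% as higher and 2.25% as lower. *Foxp2* was under the filter, so 8 of the 9 factors were tested.

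*Bcl11b* was at 18.6, 19.9 and 19.2 FPKM in controls and at 17.6, 10.5 and 12.1 FPKM in cKO hippocampi. All 3 cKO libraries lay below the controls, cKO library 1 closely so. The means were 19.2 ± 0.663 and 13.4 ± 3.72 FPKM (SD, n = 3 each) and the log2 fold change was -0.52 (95% confidence interval -0.86 to -0.19, unadjusted p = 0.00615, adjusted p = 0.0624 from limma), which does not pass adjustment over all genes. Leaving out cKO library 1, the one that differs in sex, the log2 fold change was -0.72 (adjusted p = 0.00551), and without cKO library 2 it was -0.38 and no longer called.

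*Tbr1* was at 32.9, 30.7 and 30.7 FPKM in controls and at 39.6, 37.9 and 36.6 FPKM in cKO hippocampi, each of the latter above each control. The log2 fold change was 0.27 (95% confidence interval 0.15 to 0.39, adjusted p = 0.0184 from limma). It was the only one of the 8 tested factors with an adjusted p under 0.05, in a comparison where 8.27% of genes had one, but it was under the fold change threshold. With a library left out the log2 fold change was 0.24 to 0.30 and the adjusted p from limma was above 0.05 without control library 2 (0.0555), control library 3 (0.0706), cKO library 1 (0.0602) or cKO library 2 (0.0651). It was also above 0.05 with eBayes without a trend (0.0549).

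*Cux1* and *Cux2*, the paired homeobox factors of upper layers, were a little higher in cKO hippocampi too. *Cux1* was at 23.5, 18.9 and 20.5 FPKM in controls against 25.5, 25.3 and 26.3 FPKM, with a log2 fold change of 0.29 (95% confidence interval 0.11 to 0.46, adjusted p = 0.0517 from limma). *Cux2* was at 7.60, 7.51 and 8.14 FPKM in controls against 9.37, 9.06 and 9.88 FPKM, with a log2 fold change of 0.25 (95% confidence interval 0.09 to 0.42, adjusted p = 0.0637 from limma). For both genes the cKO libraries were all above the controls, and neither passed the fold change threshold.

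The upper-layer factor *Rorb* went the other way, from 1.27, 0.987 and 1.09 FPKM in controls to 0.543, 0.715 and 0.882 FPKM in cKO hippocampi. The groups do not overlap, and the log2 fold change was -0.31 (95% confidence interval -0.58 to -0.03, unadjusted p = 0.0340, adjusted p = 0.173 from limma). Its size is under the threshold at a pseudocount of 1 and past it, at -0.59, at a pseudocount of 0.1.

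The other 3 tested factors overlapped between the groups in the entries read. The log2 fold change was 0.20 for *Fezf2* (95% confidence interval -0.06 to 0.45), -0.19 for *Sox5* (-0.47 to 0.09) and 0.05 for *Pou3f2* (-0.21 to 0.32) and each interval includes 0. A second, lower *Fezf2* entry was not read. It was at 2.02, 1.70 and 2.21 FPKM in controls and 2.59, 2.70 and 2.78 FPKM in cKO hippocampi, without overlap. *Foxp2* was at 0.219 to 0.368 FPKM in controls and 0.337 to 0.765 FPKM in cKO hippocampi. In all, 5 of 8 factors did not overlap between the groups, where 29.2% of all genes did not, and the same 5 had an unadjusted p under 0.05, where 23.0% of genes had one. Of these 5, 3 were higher and 2 lower. Among the deep-layer factors 1 of 4 tested was called and among the upper-layer factors 0 of 4, and the median log2 fold change was 0.0026 for the former and 0.15 for the latter, against 0.0084 over all genes.

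**Figure D4:**
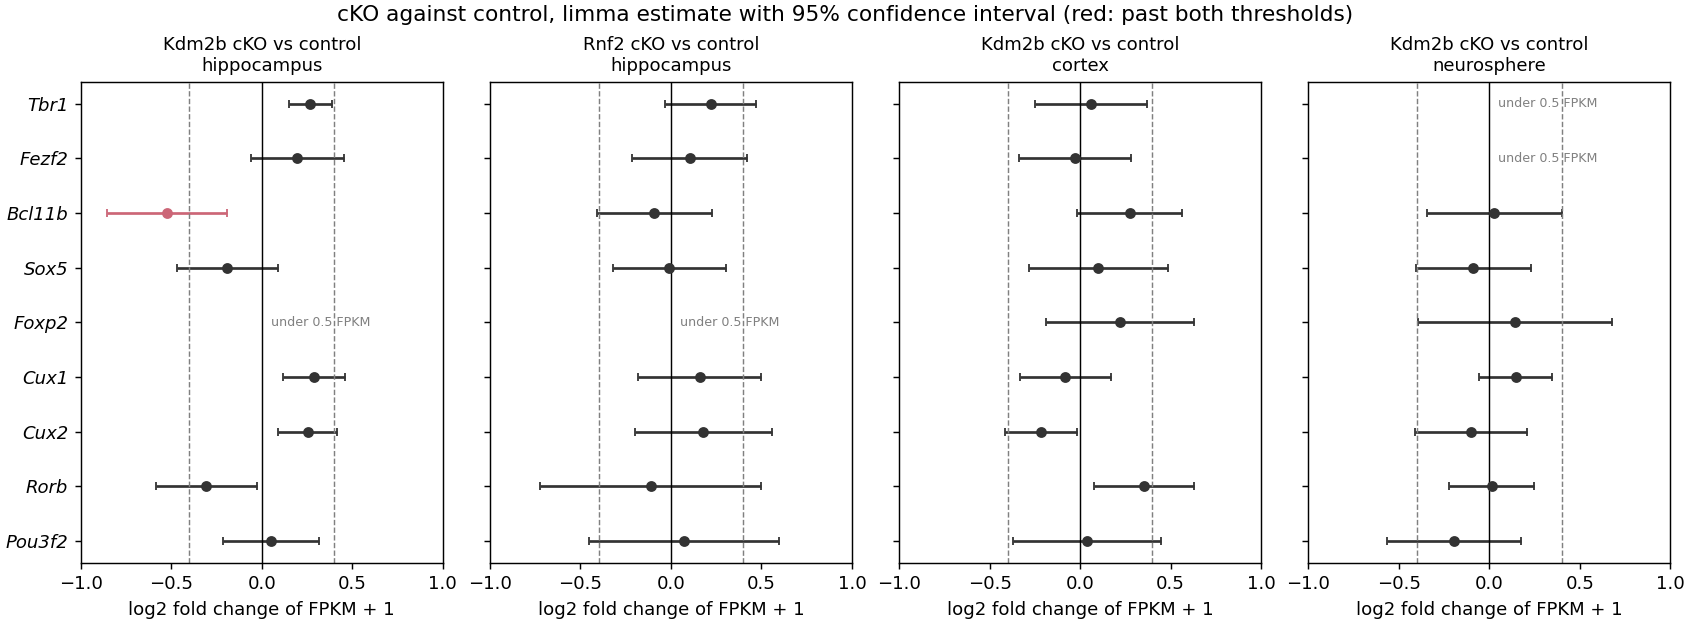
Log2 fold change of FPKM + 1, cKO against control, of each factor in the 4 comparisons (points, limma estimates; bars, 95% confidence intervals; dashed lines, the threshold of 0.4 in either direction). The red point, *Bcl11b* in *Kdm2b* cKO hippocampi at -0.52, is the only estimate past both thresholds.

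Other genes of layers and projection neurons were read from lists of markers, which were drawn up with earlier results of these data known. Of 13 tested deep-layer genes in *Kdm2b* cKO hippocampi, 1 rose and 2 fell, and the median log2 fold change was -0.30. The gene that rose was *Nxph4*, a neurexophilin of deep cortical neurons, from 9.23 ± 0.770 to 25.8 ± 1.81 FPKM (SD, n = 3 each, log2 fold change 1.39, adjusted p = 4.48e-05 from limma). *Crym*, which encodes a thyroid hormone binding protein, fell by 0.54 and *Hs3st4*, a heparan sulfate sulfotransferase gene, by 0.48 on the log2 scale (adjusted p = 0.00726 and 0.0352 from limma). Of 15 upper-layer genes, 2 had a log2 fold change above 0 and the median was -0.15. None was called higher and 2 were called lower. These were *Pou3f1*, a close relative of *Pou3f2*, from 11.9 ± 3.27 to 4.30 ± 2.63 FPKM (log2 fold change -1.36, adjusted p = 0.0280 from limma), and *Nectin3*, an adhesion gene, with a log2 fold change of -0.43. *Pou3f2* itself was at 1.79 to 2.52 FPKM in controls and 2.19 to 2.49 FPKM in cKO hippocampi.

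Of 10 genes shared by projection neurons, 1 fell past both thresholds, *Slc17a7* (a vesicular glutamate transporter), from 85.3 ± 15.5 to 56.8 ± 7.37 FPKM (SD, n = 3 each, log2 fold change -0.57, adjusted p = 0.0286 from limma). Without the fold change threshold, 2 of the 10 were higher and 3 lower at an adjusted p under 0.05 from limma, where 8.27% of all genes had one. Of 8 progenitor genes 5 rose, among them the proneural factor *Neurog2* (log2 fold change 1.42), *Eomes* (TBR2, a factor of intermediate progenitors and a T-box relative of *Tbr1*, 1.16) and *Pax6* (0.83). Summed progenitor FPKM was 267 to 301 in controls and 389 to 424 in cKO hippocampi.

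Markers of other cells in the same hippocampi moved as follows. Summed FPKM of 8 thalamic genes was 46.3 to 49.8 in controls and 59.7 to 63.9 in cKO libraries, with *Lhx9* (log2 fold change 0.57) and *Tcf7l2* (0.40) called higher and none of the 8 at 0. Of 6 Cajal-Retzius genes, *Ebf3* (0.85) and *Lhx1* (0.65) were called higher. *Tbr1*, higher in the same libraries, is itself on in Cajal-Retzius cells, and their summed FPKM was 212 to 239 in controls and 224 to 259 in cKO libraries. Summed striatal FPKM, relevant to *Bcl11b*, was 18.2 to 19.8 in controls and 17.9 to 20.1 in cKO libraries, with *Penk* called lower (-0.66). None of 8 interneuron, 6 oligodendrocyte lineage, 6 meningeal and 4 blood genes was called, 2 of 6 astrocyte genes (*Aqp4*, -0.59, and *S100b*, -0.40) were lower, and 2 choroid plexus genes (*Ttr*, 1.77, with overlapping libraries, and *Clic6*, 0.47) were higher. Of 8 genes that check the hippocampal label, *Lef1* (1.19), *Wnt8b* (1.16) and *Lhx9* (0.57, also on the thalamic list) were higher and *Lmo1* (-0.45) lower, with summed FPKM of 231 to 273 in controls and 272 to 284 in cKO libraries. The part of thalamic, Cajal-Retzius and progenitor cells in the values of the 9 factors was not tested.

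In cortices, where the same *Kdm2b* allele is removed, none of the 9 factors was called by limma, with 7.01% of all genes called, 4.73% as higher and 2.28% as lower, and 0 had an adjusted p under 0.05, where 0.427% of genes had one. At an unadjusted p under 0.05 with no fold change threshold there were 2, *Rorb* and *Cux2* (background 12.8%). With limma-voom on the recovered reads 1 was called, *Rorb*.

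*Rorb* was at 3.03 and 3.58 FPKM in controls and 4.26 and 4.73 FPKM in cKO cortices, both cKO libraries above both controls. The log2 fold change was 0.35 (95% confidence interval 0.08 to 0.63, adjusted p = 0.289 from limma), and 0.45 on the recovered reads with limma-voom (adjusted p = 0.0794). It was 0.26 to 0.45 with a library left out, and called without control library 2 (0.45) or cKO library 1 (0.42). *Cux2* was at 19.1 and 18.9 FPKM in controls and 15.6 and 16.9 FPKM in cKO cortices, both below, with a log2 fold change of -0.22 (95% confidence interval -0.41 to -0.02, adjusted p = 0.346 from limma). *Bcl11b* was at 30.2 and 30.1 FPKM in controls and 40.5 and 33.1 FPKM in cKO cortices, both above, with a log2 fold change of 0.27 (95% confidence interval -0.02 to 0.57). It was 0.13 without cKO library 1 and 0.42, and called, without cKO library 2.

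The other 6 factors overlapped between the cortical groups. *Tbr1*, at 53.0 and 58.6 FPKM in controls and 63.9 and 52.9 FPKM in cKO cortices, had a log2 fold change of 0.06 (95% confidence interval -0.25 to 0.37). *Fezf2*, at 54.4 and 50.3 against 56.6 and 46.3 FPKM, had one of -0.03 (-0.34 to 0.28), and *Pou3f2*, at 47.3 and 64.7 against 58.1 and 55.5 FPKM, one of 0.04 (-0.37 to 0.45). *Sox5* (23.6 and 27.4 against 31.2 and 24.0 FPKM), *Foxp2* (2.05 and 3.05 against 2.94 and 3.26 FPKM) and *Cux1* (10.1 and 11.9 against 10.5 and 10.2 FPKM) had estimates of 0.10, 0.22 and -0.08, and *Foxp2* was called without control library 2 (0.43). With 2 libraries a group, 3 of 9 factors did not overlap, where 44.8% of all genes did not.

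Of the other deep-layer genes in cortices, 1 of 13 rose and 2 fell: *Nxph4* from 9.29 ± 0.426 to 30.3 ± 6.92 FPKM (SD, n = 2 each, log2 fold change 1.59, adjusted p = 0.0454 from limma), *Crym* by a log2 fold change of -1.79, and *Nr4a2*, an orphan nuclear receptor of subplate and claustrum, by -0.68. None of 13 upper-layer and 10 projection neuron genes was called, and 1 of 8 progenitor genes, *Nes*, was higher (0.64). The cKO cortices differed from controls in other markers. All 6 meningeal genes were higher (*Dcn* 2.33, *Lum* 2.24 and *Col1a2* 1.99 on the log2 scale), with summed FPKM of 1.28 to 1.93 in controls and 17.2 to 25.8 in cKO cortices. Of 4 blood genes 3 were higher (*Hbb-bs* 0.64, *Hbb-bt* 0.58 and *Hba-a1* 0.55). Summed striatal FPKM was 26.3 to 29.2 in controls and 36.2 to 46.3 in cKO cortices. *Ppp1r1b* (DARPP-32), the only striatal gene called, went from a mean of 17.3 to 26.0 FPKM (log2 fold change 0.56, adjusted p = 0.0828 from limma). Of the 8 striatal genes tested, 7 had estimates above 0. *Ppp1r1b* was also called higher in neurospheres and in *Rnf2* cKO hippocampi. Striatal neurons also express *Bcl11b*, which was higher in the same cortices. Of 8 hippocampal genes, *Lmo1* (-0.68) and *Zbtb20* (-0.45) were lower, and the summed FPKM was 54.4 to 65.1 in controls and 38.3 to 41.6 in cKO cortices. Single genes of the interneuron (*Npy*, -1.63), astrocyte (*Gja1*, 1.60), oligodendrocyte lineage (*Pdgfra*, 0.80) and choroid plexus (*Aqp1*, 0.93) lists were called, and none of the thalamic or Cajal-Retzius lists. Of these marker genes *Dcn*, *Lum* and *Gja1* also had an adjusted p under 0.05 (0.0114, 0.0403 and 0.0156 from limma). The part of these tissues in the cortical values was not tested.

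The effects in hippocampus and cortex were compared by the interaction of genotype and table, over 10708 shared genes. These tables differ in tissue, in form and in the group whose library differs in sex, which cannot be told apart. *Cux2* differed, being higher in cKO hippocampi and lower in cKO cortices, with a difference of log2 fold changes of 0.47 (95% confidence interval 0.26 to 0.69, adjusted p = 0.0399 from limma). It was 1 of 8 factors tested, and 1.61% of all genes differed. *Bcl11b* (difference -0.80, 95% confidence interval -1.28 to -0.32, adjusted p = 0.120) and *Rorb* (-0.66, 95% confidence interval -1.03 to -0.29, adjusted p = 0.0917) also had effects of opposite sign, *Bcl11b* lower in hippocampus and higher in cortex, *Rorb* likewise, but these did not pass adjustment. *Cux1* had a difference of 0.37 (adjusted p = 0.219). For *Cux2* the adjusted p was between 0.0538 and 0.177 with any 1 library left out, at differences of 0.42 to 0.53. Without hippocampal cKO library 1, *Bcl11b* differed (-0.998, adjusted p = 0.00450). For *Pou3f2* the difference was 0.01, with a 95% confidence interval of -0.38 to 0.41.

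Neurospheres showed none of the 7 tested factors called by limma, in a comparison where 24.6% of all genes were called, 11.4% as higher and 13.2% as lower. At an unadjusted p under 0.05 there were 0 factors as well, where 38.2% of genes had one and 22.3% had an adjusted p under 0.05. The count was 0 with and without control library 1, which stands apart. *Cux1*, at 31.2 and 33.2 FPKM in controls and 36.5 and 34.9 FPKM in cKO neurospheres, had a log2 fold change of 0.15 (95% confidence interval -0.06 to 0.35). *Cux2* was at 2.85 and 2.92 against 2.55 and 2.69 FPKM (-0.10, -0.41 to 0.21), and *Rorb* at 7.69 and 7.41 against 7.48 and 7.78 FPKM (0.01, -0.22 to 0.25). *Bcl11b* was at 1.35 and 1.53 against 1.503 and 1.47 FPKM (0.03, -0.34 to 0.40). Of the 7 factors, *Cux1* and *Cux2* did not overlap between the groups, where 66.4% of all genes did not.

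*Sox5* was at 16.6 and 16.8 FPKM in control and 17.7 and 13.8 FPKM in cKO neurospheres, *Pou3f2* at 5.85 and 7.91 against 5.65 and 5.99 FPKM, and *Foxp2* at 1.60 and 1.22 against 2.15 and 1.24 FPKM, all overlapping. A second *Foxp2* entry, at 2.83 FPKM in control library 2 and 0 in the others, was not read, and summed with the first it turned the log2 fold change from 0.14 to -0.45. *Tbr1* (0.180 and 0.359 FPKM) and *Fezf2* (0.0307 and 0.0255 FPKM) stayed under the filter in cKO neurospheres as well.

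Of 10 deep-layer genes 1 rose and 4 fell, with *Pcp4* (a calmodulin regulator, log2 fold change -3.82), *Nr4a2* (-1.37) and *Ldb2* (-1.16) the largest. Of 13 upper-layer genes 4 rose and 3 fell, among them *Plxnd1*, a semaphorin receptor gene (1.003), and *Pou3f1* (-1.14). Of 5 projection neuron genes 2 rose (*Neurod1*, 0.94, and *Rbfox3*, 0.79) and 3 fell, the largest being *Dcx*, a microtubule gene of migrating neurons (-2.21). Astrocyte (5 of 6 lower, *Gja1* -3.97, *S100b* -2.45, *Aldh1l1* -2.29) and oligodendrocyte lineage genes (4 of 6 lower, *Gpr17* -3.99, *Pdgfra* -1.88, *Sox10* -1.03) were called, and so were progenitor genes (3 of 7 higher and 1 lower, *Vim* 1.18, *Mki67* 1.04, *Hes5* -0.94). Of 3 interneuron genes tested 2 rose, *Dlx2* (2.19) and *Dlx1* (1.82). Of the 4 thalamic genes 2 rose (*Ntng1*, 1.02, and *Gbx2*, 0.99) and 1 fell (*Tcf7l2*, -0.76), of the 4 striatal genes 1 rose (*Ppp1r1b*, 1.16) and 1 fell (*Tac1*, -1.24), and of the 3 Cajal-Retzius genes 2 rose (*Trp73*, 0.78, and *Ebf3*, 0.58). The 1 meningeal and the 1 choroid plexus gene tested were not called, and no blood gene passed the filter.

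Between hippocampus and neurospheres, the effect on *Cux2* differed by 0.36 (95% confidence interval 0.09 to 0.62, adjusted p = 0.0462 from limma), as 1 of 6 factors tested, while 26.9% of all 11075 shared genes differed. This call was lost with either rescaling of the libraries (difference 0.29 and 0.34) and with any 1 library left out. Without hippocampal cKO library 1, *Bcl11b* differed (-0.75, adjusted p = 0.00404).

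In *Rnf2* cKO hippocampi none of the 8 tested factors was called by limma, with 4.71% of all genes called, 2.86% as higher and 1.85% as lower, and none had an unadjusted p under 0.05, where 7.11% of genes had one. With adjusted p values 0 genes of the whole table passed. *Tbr1*, at 23.5 and 23.9 FPKM in controls and 27.7 and 27.8 FPKM in cKO hippocampi, had the largest estimate, a log2 fold change of 0.22 (95% confidence interval -0.03 to 0.47, adjusted p = 0.724 from limma), and both cKO libraries were above both controls. *Cux1*, at 4.30 and 4.99 against 5.05 and 5.54 FPKM (0.16, -0.18 to 0.50), did not overlap either, where 38.3% of all genes did not. *Cux2* was at 4.004 and 4.70 against 4.57 and 5.55 FPKM (0.18, -0.20 to 0.56).

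*Bcl11b* was at 27.2 and 32.2 FPKM in controls and 26.5 and 29.0 FPKM in *Rnf2* cKO hippocampi (-0.09, 95% confidence interval -0.41 to 0.23). *Fezf2* (26.9 and 28.9 against 27.5 and 32.7 FPKM), *Sox5* (4.56 and 4.59 against 4.72 and 4.36 FPKM) and *Pou3f2* (2.94 and 1.90 against 2.90 and 2.23 FPKM) had estimates of 0.10, -0.01 and 0.07. *Rorb*, at 1.08 and 0.493 FPKM in controls and 0.661 and 0.603 FPKM in cKO hippocampi, was at -0.11 with a wide interval of -0.72 to 0.50, and *Foxp2* (0.333 and 0.295 FPKM in cKO hippocampi) was under the filter. In the interaction over 11266 shared genes, 0 of 8 factors differed between the *Kdm2b* and *Rnf2* hippocampi, with 0.683% of genes called. For *Bcl11b* the difference was -0.43 (95% confidence interval -0.92 to 0.06), and for *Tbr1* 0.05 (-0.16 to 0.25).

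Of the other layer genes, 2 of 13 deep-layer genes fell in *Rnf2* cKO hippocampi, *Lmo3* (log2 fold change -0.67) and the ETS factor *Etv1* (-0.49), and no upper-layer, projection neuron or progenitor gene was called. *Col1a1* (-0.83), *Col1a2* (-0.76) and *Lum* (-0.61) of the 6 meningeal genes were lower, with summed FPKM of 27.95 to 28.2 in controls and 13.1 to 20.0 in cKO libraries. Higher were *Ebf3* (0.49) and *Lhx1* (0.45) of the Cajal-Retzius, *Dlx2* (0.56) of the interneuron and *Ppp1r1b* (0.41) of the striatal genes, and none of the thalamic, astrocyte, oligodendrocyte lineage, choroid plexus and blood genes was called.

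**Figure D5:**
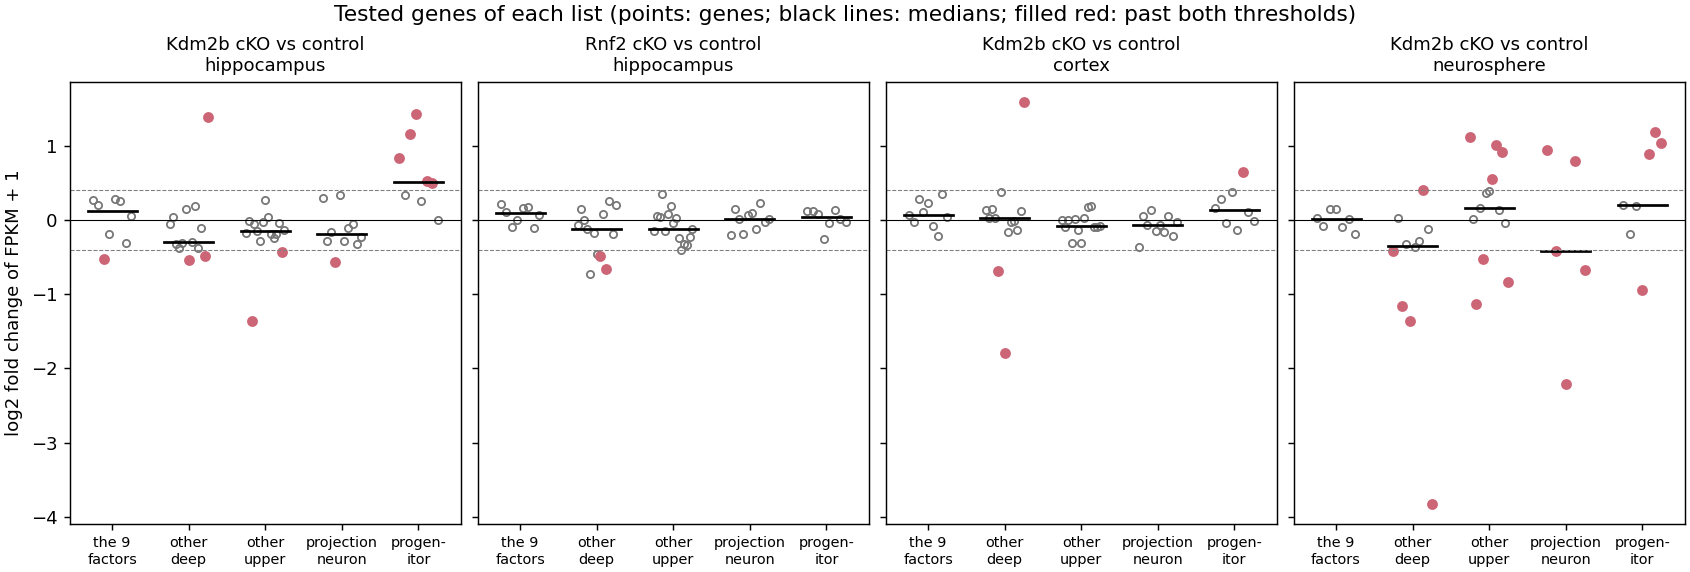
Log2 fold change of FPKM + 1, cKO against control, of the tested genes of 5 lists (the layer factors, other deep-layer, other upper-layer, projection neuron and progenitor genes) in the 4 comparisons; points are genes, black lines medians, dashed lines the threshold of 0.4, and filled red points genes past both thresholds. Among the layer factors 1 point is red, *Bcl11b* in *Kdm2b* cKO hippocampi, while in neurospheres called genes of the other 4 lists lie on both sides of 0.

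Because KDM2B binds CpG, the CG dinucleotides upstream of each start were counted in the RefSeq promoters of GRCm38.p6, of which 8 of the 9 factors had 1 or more (10 windows, none for *Foxp2*). In the 250 bases before the start, the median of all 32851 windows was 6 CG, with quartiles of 2 and 16. *Cux2* had 40 at its outer start, a number that 1.31% of windows reach, and 3 at its inner start. *Cux1*, *Rorb* (outer start) and *Pou3f2* had 18 each, which 21.7% of windows reach, and *Fezf2* had 14. *Bcl11b* had 9, *Tbr1* 5, *Rorb* at its inner start 4, and *Sox5* 3. The windows of *Tbr1*, *Fezf2*, *Cux1* and *Sox5*, both windows of *Cux2* and the inner window of *Rorb* lie inside the annotated span of their gene. That of *Sox5* ends at 143947356, while the gene, on the minus strand, reaches 144781977. The outer *Cux2* window ends at 122050101, while the gene reaches 122050102. The *Bcl11b* window lies partly inside its gene. The counts of all these windows are therefore not those of the outermost annotated start. The stretches of 4 windows outside annotated exons follow, 5′ to 3′ on the strand of the gene, with each CG in capitals. *Cux2* and *Rorb* are shown as examples of factors whose estimates had opposite signs in hippocampus and cortex. Those of *Bcl11b*, *Cux1*, *Sox5* and *Fezf2* also did, and a link of CG counts with these signs was not tested. *Pou3f2* is shown for its difference between tissues, and *Sox5* as an inner window with few CG. The part of the *Bcl11b* window outside exons, 62 bases without CG, is not shown. The *Cux2* stretch is 164 of the 250 bases and holds 28 of the 40 CG.
Cux2, chr5:122049852-122050015, minus strand: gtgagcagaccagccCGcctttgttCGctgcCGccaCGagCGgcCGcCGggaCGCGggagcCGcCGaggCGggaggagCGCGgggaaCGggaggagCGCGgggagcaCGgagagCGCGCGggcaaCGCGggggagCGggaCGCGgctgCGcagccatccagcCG
Rorb, chr19:19111197-19111446, minus strand: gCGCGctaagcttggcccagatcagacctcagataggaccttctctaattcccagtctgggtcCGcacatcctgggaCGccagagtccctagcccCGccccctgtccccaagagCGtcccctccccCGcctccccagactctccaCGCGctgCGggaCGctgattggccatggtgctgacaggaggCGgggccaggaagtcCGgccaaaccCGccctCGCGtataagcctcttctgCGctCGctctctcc
Pou3f2, chr4:22488367-22488616, minus strand: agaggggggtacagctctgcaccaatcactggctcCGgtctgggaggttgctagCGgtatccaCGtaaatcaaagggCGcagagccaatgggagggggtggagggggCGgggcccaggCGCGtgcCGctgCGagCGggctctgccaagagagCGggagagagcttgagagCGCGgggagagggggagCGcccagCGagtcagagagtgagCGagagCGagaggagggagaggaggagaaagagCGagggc
Sox5, chr6:143947107-143947356, minus strand: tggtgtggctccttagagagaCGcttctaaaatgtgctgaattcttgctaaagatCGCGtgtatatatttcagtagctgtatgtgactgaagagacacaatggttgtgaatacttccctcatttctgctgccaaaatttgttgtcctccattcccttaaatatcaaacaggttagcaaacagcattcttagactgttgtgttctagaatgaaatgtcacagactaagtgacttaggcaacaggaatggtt
These counts describe the letters alone, and binding or methylation at these windows was not analysed here. By the annotation deposited with the cortical table (GRCm38), *Bcl11b* (ENSMUSG00000048251) spans chr12:107910403-108003602 on the minus strand, *Tbr1* (ENSMUSG00000035033) chr2:61802930-61814114 on the plus strand and *Cux2* (ENSMUSG00000042589) chr5:121856366-122050102 on the minus strand.

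To find genes of similar pattern, log2(FPKM + 1) was centred on the controls of each table, and the 9605 genes above the filter in all 4 tables were correlated over the 18 libraries with the 6 factors among them. The genes most like *Bcl11b* were *Sertm1* (Pearson's r = 0.85), *Snx30* (0.82) and *Rgl1* (0.80), and those most like *Cux2* were *Uimc1* (0.94), *Gigyf1* (0.93) and *Krba1* (0.89). *Cux1* was most like *Tead1* (0.89), *Hyi* (0.87) and *Plekhg2* (0.86), and *Rorb* most like *Arl4a* (0.88), *Car2* (0.85) and *Dgat2* (0.85). *Sox5* (*Oxa1l* 0.74, *Copg1* 0.72, *Cs* 0.71) and *Pou3f2* (*Tmem206* 0.74, *Ipo13* 0.74, *Mcat* 0.72) had weaker partners. Among the factors themselves, *Cux1* and *Cux2* varied together (r = 0.70), and *Cux2* varied against *Rorb* (-0.80) and *Bcl11b* (-0.68). These coefficients are descriptions over libraries that share controls, tables and scaling.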

How the data were processed

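RNA-seq of P0 mouse hippocampus, hippocampal neurospheres and cortex was read from 4 tables of FPKM values deposited by the authors, with groups taken from the labels. For hippocampi and neurospheres the authors used cutadapt for trimming, STAR for alignment (mm10) and Cufflinks 2.2.1 for FPKM. How the cortical and *Rnf2* FPKM were made is not given in the sources used here. In those tables FPKM multiplied by gene length is a whole multiple of 1 step per library (100% of values below 200 reads, within 0.02), which gave reads. Entries without a gene name were left out.

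Genes averaging 0.5 FPKM or more over a comparison were tested on log2(FPKM + 1) with limma 3.58.1 in R 4.3.3 (eBayes with trend), each table by itself, two-sided, with Benjamini-Hochberg adjustment over all its genes. Calls used the study's thresholds. Effects of 2 tables were compared by interaction, called at an adjusted p under 0.05. The fits were tested on simulated data. The factors and all lists were chosen with earlier results of these data known. Named genes are the 9 factors, the targeted genes, at most 3 called genes per list and comparison with the largest change, and the 3 genes most like each factor, of which 1 list gene is not reported here. Alternatives were other pseudocounts, filters, scalings, priors, call rules, entries and fits, the replicate block, and each library left out.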

Additional observations from a re-analysis of the deposited data

Results flagged for a closer look

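For *Cux2*, an upper-layer factor, the test of the difference between effects passed with all libraries in 2 cases, and in neither with any 1 library left out. Its log2 fold change was 0.25 in hippocampi and -0.22 in cortices, a difference of 0.47 (adjusted p = 0.0399 from limma), and against neurospheres the difference was 0.36 (adjusted p = 0.0462 from limma). Between hippocampi and neurospheres 26.9% of all genes differed, a larger share than the 1 of 6 factors, and between hippocampi and cortices 1.61% did. All 3 cKO hippocampi were above their controls, and both cKO cortices and both cKO neurospheres were below theirs. Between hippocampi and cortices, tissue and form of table cannot be told apart.

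*Bcl11b* and *Rorb* were picked out because every cKO hippocampus lay below the controls and every cKO cortex above them. Of all genes 29.2% did not overlap between the groups in hippocampi and 44.8% in cortices, and the share with opposite order was not counted. The differences that follow use the same values as this choice. The differences between the effects were -0.80 for *Bcl11b* (adjusted p = 0.120 from limma) and -0.66 for *Rorb* (adjusted p = 0.0917 from limma), so neither passed adjustment over all genes. The cortical log2 fold change of *Bcl11b* was 0.13 to 0.42 with a library left out. Summed striatal FPKM was also higher in the cKO cortices (36.2 to 46.3 against 26.3 to 29.2). Only *Ppp1r1b* of that list was called there, and it was called higher in neurospheres and *Rnf2* cKO hippocampi too. The part of striatal RNA in the *Bcl11b* values was not tested.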

How the results depend on the processing

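In hippocampi 1 factor was called with the settings above, 2 with a pseudocount of 0.1 (*Rorb* joined *Bcl11b*), 5 without the fold change threshold, 0 with an adjusted p and 0 to 1 with a library left out. In cortices 0 were called, 1 with a pseudocount of 0.1, 1 with limma-voom, 2 without the fold change threshold, and 0 to 2 with a library left out. The counts for neurospheres and *Rnf2* hippocampi were 0 under every alternative. With the replicate block the counts were 1 in hippocampi and 0 in the other 3 comparisons. Deviations of same-numbered libraries correlated at -0.28 to 0.16, so the numbers were not read as pairs, and a crossed block in neurospheres, added after this was seen, also gave 0. The *Cux2* difference between hippocampi and cortices went from 1 to 0 called factors with eBayes without a trend (adjusted p = 0.0517 from limma), and that between hippocampi and neurospheres to 0 with both rescalings. With a library left out *Cux2* was called in neither difference, and the number of factors called was 0 to 1 in each, the 1 being *Bcl11b* without hippocampal cKO library 1. No factor differed between *Kdm2b* and *Rnf2* hippocampi under any alternative. The cause of these differences between settings was not tested.

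Signs turned only for estimates that were never called. Rescaling to the same total gave 0.025 for *Sox5* in neurospheres and -0.0062 for *Pou3f2* in cortices, and summed entries gave -0.45 for *Foxp2* in neurospheres. With a library left out, ranges crossed 0 in hippocampi for *Pou3f2* (-0.047 to 0.12). They did so in neurospheres for *Bcl11b* (-0.023 to 0.078), *Sox5* (-0.26 to 0.082), *Foxp2* (-0.10 to 0.39) and *Rorb* (-0.012 to 0.039). In cortices they did for *Tbr1* (-0.074 to 0.19), *Fezf2* (-0.17 to 0.11), *Sox5* (-0.083 to 0.28), *Cux1* (-0.19 to 0.025) and *Pou3f2* (-0.19 to 0.26), and in *Rnf2* hippocampi for *Fezf2* (-0.018 to 0.22), *Bcl11b* (-0.21 to 0.025), *Sox5* (-0.056 to 0.038), *Rorb* (-0.35 to 0.13) and *Pou3f2* (-0.15 to 0.29). Where a group keeps 1 library, that library is assumed to vary like the other group. Groups of 2 or 3 libraries and unknown depth in 2 tables limit what these values show.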
